A study of Rattus norvegicus with 4 samples.

Results

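The genes described are 10 heat shock chaperones and cochaperones, followed by their messenger RNA in single cells of the rat esophagus after X-ray irradiation. They were chosen by symbol: Hspa1a, Hspa1b, Hspa8, Hspa5, Dnajb1, Dnaja1, Hsph1, Hspb1, Hspd1 and Hsp90aa1. Of the 10 symbols, 9 named a feature among the 30017 symbols of the deposited tables, and Hspa1a named none. Of those 9, 8 had usable counts, since Hsp90aa1 had 7 UMIs in all kept cells of the 4 libraries together. The choice followed an earlier reading of these same libraries, in which stress genes were lower in both irradiated libraries of day 7, so the size of that difference is given as a description and supports nothing.

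The study irradiated the esophageal region of male Sprague-Dawley rats aged 6 weeks with X-rays and profiled the esophagus by droplet single-cell RNA sequencing, which counts transcripts by unique molecular identifiers (UMIs). The single-dose library, labelled 35Gy_7d, came from rats given 1 dose of 35 Gy and killed 7 days later. The fractionated libraries, labelled 5x7Gy_7d and 5x7Gy_14d, came from rats given 5 daily doses of 7 Gy and killed 7 or 14 days later. The unirradiated library, labelled 0Gy_7d, came from rats given 5 doses of 0 Gy and killed at day 7. Each library was 1 pool of the esophagi of 5 rats, so there was 1 sample per group, no spread between animals could be measured, and no test between groups was possible. All 4 pools were stored cold, shipped, digested with collagenase I, DNase I and trypsin and depleted of dead cells, per the labels' protocol. Dose, day, animals, shipment, digestion and library preparation therefore cannot be told apart in any difference below.

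Chaperones bind unfolded protein and help it to fold, hold it soluble or pass it on for degradation. The HSP70 proteins do this through cycles of ATP use that J-domain cochaperones (the DNAJ proteins) start and nucleotide exchange factors reset. Most cytosolic members are transcribed under the heat shock factor HSF1, which binds repeats of the element nGAAn when unfolded protein builds up, whereas BiP, the HSP70 of the endoplasmic reticulum encoded by Hspa5, is a target of the unfolded protein response. Heat shock genes and immediate-early genes such as Fos are also known to be induced by tissue digestion before single-cell capture.

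The promoters carry motifs of both systems, so 3 promoters with heat shock elements and the Hspa5 promoter are printed here. RefSeq promoter windows of 300 bases, from 250 before to 50 after the annotated start, were available on build GRCr8 for 7 of the 8 measured genes and not for Hspa1b. Capitals mark letters matching the heat shock element dimers GAANNTTC or TTCNNGAA in the first 3 sequences and the endoplasmic reticulum stress element in Hspa5, which is CCAAT and CCACG with 9 bases between them. Positions are chr12:10427118-10427417 on the plus strand for Hsph1, chr19:41431092-41431391 on the minus strand for Dnajb1, chr9:64083988-64084287 on the minus strand for Hspd1 and chr3:38452766-38453065 on the plus strand for Hspa5, each read 5′ to 3′ along its gene.
Hsph1: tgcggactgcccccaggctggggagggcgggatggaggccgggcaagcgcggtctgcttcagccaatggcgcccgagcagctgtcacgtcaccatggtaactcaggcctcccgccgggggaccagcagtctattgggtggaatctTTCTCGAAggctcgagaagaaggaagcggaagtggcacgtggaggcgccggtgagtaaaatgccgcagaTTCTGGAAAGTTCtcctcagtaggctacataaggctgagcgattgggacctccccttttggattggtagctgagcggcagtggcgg
Dnajb1: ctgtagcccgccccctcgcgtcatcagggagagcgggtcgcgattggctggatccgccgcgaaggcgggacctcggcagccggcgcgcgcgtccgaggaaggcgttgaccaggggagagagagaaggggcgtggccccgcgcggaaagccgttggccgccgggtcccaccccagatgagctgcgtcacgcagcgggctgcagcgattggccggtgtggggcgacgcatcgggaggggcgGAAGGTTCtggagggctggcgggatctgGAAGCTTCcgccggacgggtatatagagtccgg
Hspd1: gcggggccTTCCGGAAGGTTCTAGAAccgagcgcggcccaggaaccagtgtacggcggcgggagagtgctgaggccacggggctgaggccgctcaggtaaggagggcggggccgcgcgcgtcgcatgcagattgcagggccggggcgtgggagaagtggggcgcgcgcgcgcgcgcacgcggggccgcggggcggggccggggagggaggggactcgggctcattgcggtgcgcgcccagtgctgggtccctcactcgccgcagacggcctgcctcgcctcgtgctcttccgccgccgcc
Hspa5: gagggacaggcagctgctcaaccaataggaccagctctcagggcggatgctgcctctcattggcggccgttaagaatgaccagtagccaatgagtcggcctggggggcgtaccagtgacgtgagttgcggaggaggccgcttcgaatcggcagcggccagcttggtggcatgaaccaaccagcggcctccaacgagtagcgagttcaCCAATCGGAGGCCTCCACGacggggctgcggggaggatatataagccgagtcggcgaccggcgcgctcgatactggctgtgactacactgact

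Either dimer occurred in the windows of Hspa8, Dnajb1, Dnaja1, Hsph1, Hspb1 and Hspd1, with 2 to 4 matches each, and in 15.9% of all 33469 promoter windows. A repeat of 3 units, the dimer GAANNTTC followed by NNGAA, searched on both strands and overlapping the dimers, occurred in Hspa8, Dnaja1, Hsph1 and Hspd1, and in 0.798% of all windows. Hspa5 held no dimer in this window and was 1 of 22 genes, 0.0657% of all windows, with the endoplasmic reticulum stress element on either strand. The window listed for Hspa1a held 0 dimers and 0 endoplasmic reticulum stress elements. Bases outside the window, which depends on the annotated start, were not searched, so this does not show that the gene lacks such elements. A match is a description of the letters and not evidence of binding.

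The libraries held 11488 barcodes (35Gy_7d), 10887 (5x7Gy_7d), 10468 (5x7Gy_14d) and 12505 (0Gy_7d), with 59805782 to 109618791 UMIs each, and 8878 to 11357 cells per library were kept. Over the limit of 20% mitochondrial UMIs lay 15.2% and 16.6% of barcodes in the single-dose and fractionated day-7 libraries, 3.71% in the day-14 library and 5.49% in the unirradiated library. Cells were assigned to classes by marker genes that include no chaperone (at least 3 of its list, and a score 1.5 times that of the next class). Each class held every one of its own markers present in the tables, except Nts in lymphatic endothelium and Myog in satellite cells of 35Gy_7d and 5x7Gy_14d, and Gzmb and Klrb1 in T, NK and innate lymphoid cells. Cells were gated on these same markers and any UMI in the class sufficed, so this is no independent check of the classes. Gated epithelial cells numbered 3235, 6412, 421 and 2479 in the 35Gy_7d, 5x7Gy_7d, 5x7Gy_14d and 0Gy_7d libraries, and gated fibroblasts numbered 643, 85, 3491 and 4280. Macrophages and monocytes numbered 2407, 245, 840 and 179 in the same libraries. Pairs of libraries shared 26 to 38 barcodes each. Epithelial keratin transcripts in the other classes of at least 50 cells, a scale for free RNA, stood at 2.74% to 8.94% of their epithelial level in the single-dose library and 3.4% to 8.69% in the fractionated day-7 library. They stood at 0.272% to 0.418% at day 14 and 1.31% to 1.85% in the unirradiated library, myofibres (6.99%) aside.

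Epithelial cells, fibroblasts, and macrophages and monocytes were spread differently over clusters in different libraries. For this the same cells were clustered on 2000 variable genes from which no chaperone was removed. Among epithelial clusters, 3 led by Cldn4 and Krt4, by cycling genes and by Areg and Krt14 held 1025, 405 and 907 cells of 0Gy_7d and 0 to 2 of either irradiated library of day 7. Those libraries lay in 5 other epithelial clusters, which held 480, 1048, 85, 1340 and 175 cells of 35Gy_7d and 1156, 791, 2714, 29 and 1671 cells of 5x7Gy_7d, against 8 to 46 cells of 0Gy_7d each. Fibroblasts of 35Gy_7d lay mostly in 1 cluster led by Pla2g2a and Ccl11, with 597 cells of 35Gy_7d, 13 of 5x7Gy_7d, 1 of 5x7Gy_14d and 0 of 0Gy_7d. The 2 fibroblast clusters led by Cilp and by Dkk2 and Postn held 56 and 24 cells of 35Gy_7d, 19 and 42 of 5x7Gy_7d, 1188 and 2093 of 5x7Gy_14d and 2540 and 1089 of 0Gy_7d. Macrophages and monocytes of 35Gy_7d lay in clusters led by Ms4a7 and Cd163 (739 cells) and by Fcnb and Plac8 (1732 cells), which held 0 and 6 cells of 0Gy_7d. The cluster led by Ccl4 and Cd83 held 5 cells of 35Gy_7d, 2 of 5x7Gy_7d, 1020 of 5x7Gy_14d and 291 of 0Gy_7d. Against 0Gy_7d, differences of 35Gy_7d within these 3 classes are therefore mostly between different clusters. So are those of 5x7Gy_7d in epithelial cells and in macrophages and monocytes, with 90 and 61 cells in the clusters led by Ms4a7 and by Fcnb. Cells of 5x7Gy_14d mostly shared clusters with 0Gy_7d, as did fibroblasts of 5x7Gy_7d. The 3 epithelial clusters of 0Gy_7d named above held 48, 54 and 214 cells of 5x7Gy_14d. Cell state and level per cell cannot be told apart in these 3 classes. Clusters of blood endothelium and mural cells each held cells of all 4 libraries. Those of blood endothelium held 109, 475 and 208 cells of 35Gy_7d and 318, 615 and 257 of 5x7Gy_7d. In the same order they held 1399, 456 and 549 cells of 5x7Gy_14d and 932, 166 and 237 of 0Gy_7d. The cluster led by C1qtnf9 and Gpihbp1 was the largest of these in 5x7Gy_14d and 0Gy_7d, with 1399 and 932 cells. The cluster led by Selp and Plvap was the largest in 35Gy_7d and 5x7Gy_7d, with 475 and 615 cells. Mix of clusters and level per cell therefore cannot be told apart in blood endothelium either.

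Levels below are CPM, the UMIs of a gene per 1000000 UMIs of all cells of a class in a library. Ratios are log2 ratios of CPM of the first library over the second, and the ranges after them are exact 95% intervals that cover counting error only, not variation between rats or preparations. A UMI level depends on where in a transcript the capture primes, so levels are compared between libraries and classes for 1 gene and not between genes. The summed level of the members in epithelial cells was 3315 CPM in 35Gy_7d, 2459 in 5x7Gy_7d, 10418 in 5x7Gy_14d and 10861 in 0Gy_7d. In fibroblasts the sums were 2615, 1096, 12314 and 19885 CPM in the same libraries. Both irradiated libraries of day 7 were thus far below the other two, and the day-14 library lay near the unirradiated one in epithelial cells and below it in fibroblasts.

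**Figure D1:**
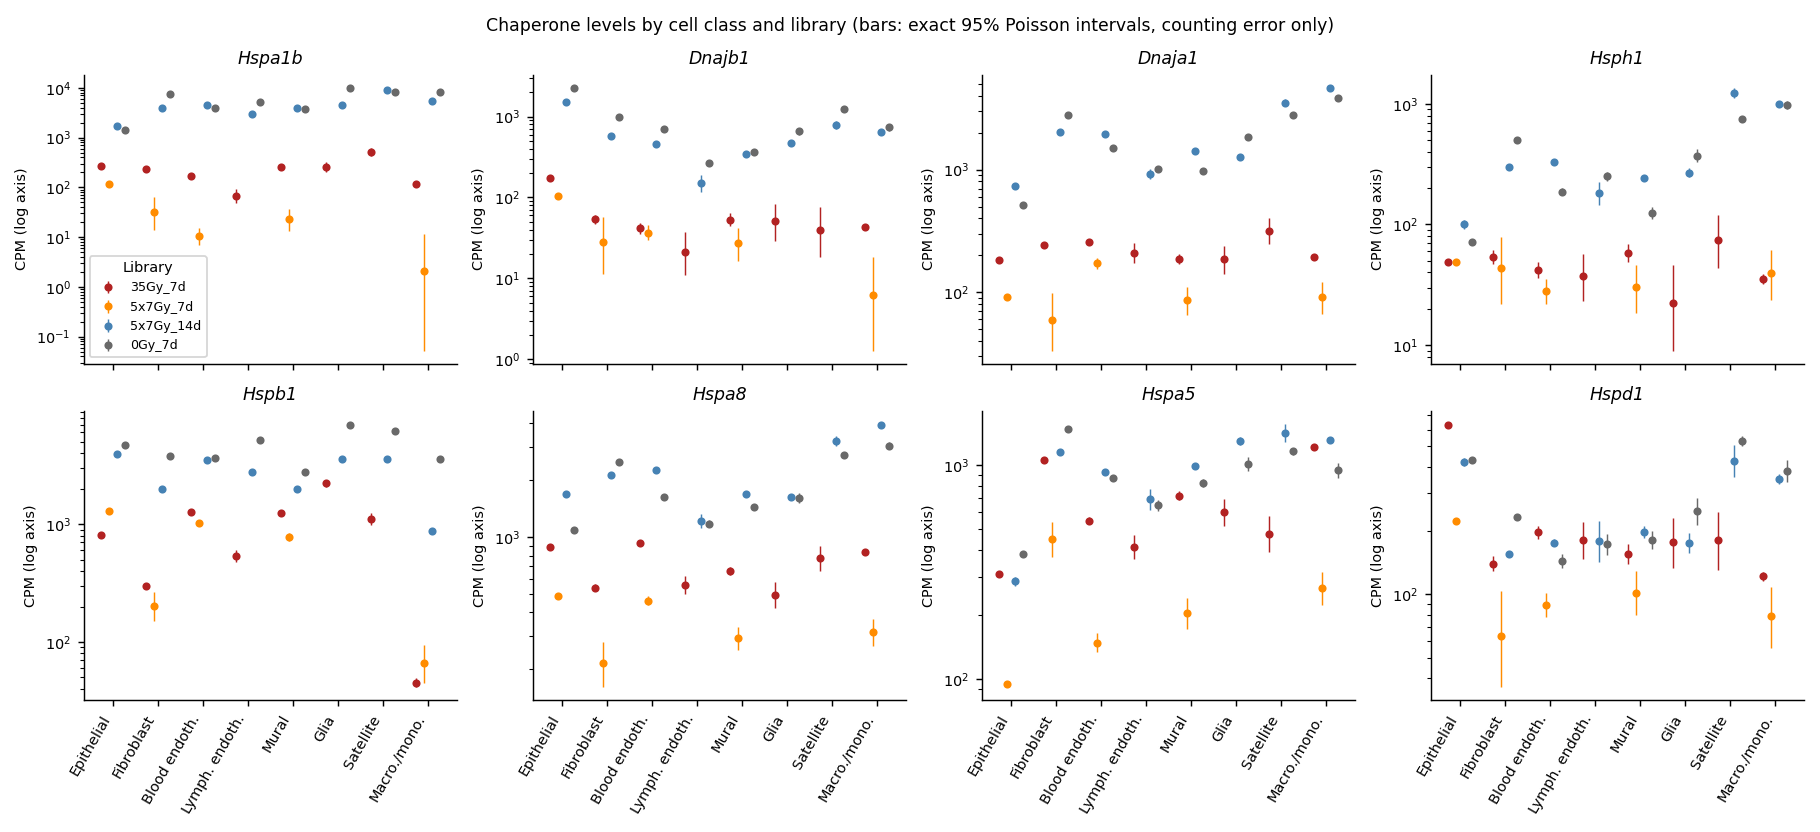
Level of each of 8 chaperone genes (CPM, log axis) in 8 cell classes, with 1 point per library and class and exact 95% Poisson intervals for counting error as bars. Red and orange points (35Gy_7d and 5x7Gy_7d) lie below blue and grey points (5x7Gy_14d and 0Gy_7d) in every class for Hspa1b, Dnajb1, Dnaja1, Hsph1, Hspb1 and Hspa8, while for Hspd1 and Hspa5 red points reach or pass the grey ones in some classes.

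Hspa1b encodes the stress-inducible cytosolic HSP70, and its levels spanned the widest range of the 8 members. In fibroblasts Hspa1b stood at 234 CPM in 35Gy_7d, 31.9 in 5x7Gy_7d, 3987 in 5x7Gy_14d and 7659.7 in 0Gy_7d. The unirradiated level was 32.7-fold (95% interval 30.7 to 34.9) that of the single-dose library and 240.3-fold (95% interval 122 to 557) that of the fractionated day-7 library. In macrophages and monocytes Hspa1b stood at 115, 2.07, 5339 and 8184 CPM in the same libraries. The fractionated day-7 value there was a single UMI in 245 cells, with a log2 ratio to the unirradiated library of -11.95 (-17.25 to -9.47). Epithelial cells had a smaller difference, at 271 CPM in 35Gy_7d, 118 in 5x7Gy_7d, 1715 in 5x7Gy_14d and 1411 in 0Gy_7d. The log2 ratios to the unirradiated library in epithelial cells were -2.38 (-2.40 to -2.36) for 35Gy_7d and -3.58 (-3.62 to -3.54) for 5x7Gy_7d, against -5.03 and -7.91 in fibroblasts. In the fractionated day-7 library the epithelial level was the highest of the 6 classes with at least 50 cells, and whether free RNA carried part of the 10.4 to 31.9 CPM seen in endothelial cells, mural cells and fibroblasts was not tested.

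The counts of Hspa1b carry 1 uncertainty of annotation. The feature table holds a further feature, LOC108348108, whose number is the identifier of a gene that RefSeq now names Hspa1b, and Hspa1a is not a symbol in it, so no level of Hspa1a is given. LOC108348108 had 4 UMIs in all kept cells together. Hspa1a and Hspa1b are near-identical copies, and reads that match both could be lost or assigned to 1 of them, so the split of reads between the copies is uncertain.

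Over single cells the same difference appeared in the share of cells with the transcript. After thinning every cell to 1000 UMIs, Hspa1b had a UMI in 17.9% of fibroblasts in 35Gy_7d, in 0 of 64 in 5x7Gy_7d, in 86.8% in 5x7Gy_14d and in 95.2% in 0Gy_7d. A count of 0 in 64 allows a share of cells with a UMI, at that depth, of up to 5.6% by the exact binomial interval. Unthinned shares were 42.8%, 7.06%, 95.8% and 98.2% in the same libraries, at median depths of 4792, 2114, 9889 and 6983.5 UMIs. Thinning left out 124, 21, 131 and 443 shallower cells. No class is known to lack inducible HSP70, so no background share can be set beside these, and the lowest thinned share of the same library was 2.52% in neutrophils of 35Gy_7d at a median depth of 1022 UMIs. In epithelial cells the thinned shares were 23.8%, 10.7%, 64.9% and 63.4%. The middle of the distribution moved with the mean: the median fibroblast had 0 Hspa1b UMIs per 10000 in both irradiated libraries of day 7, 35.6 in 5x7Gy_14d and 74.7 in 0Gy_7d.

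**Figure D2:**
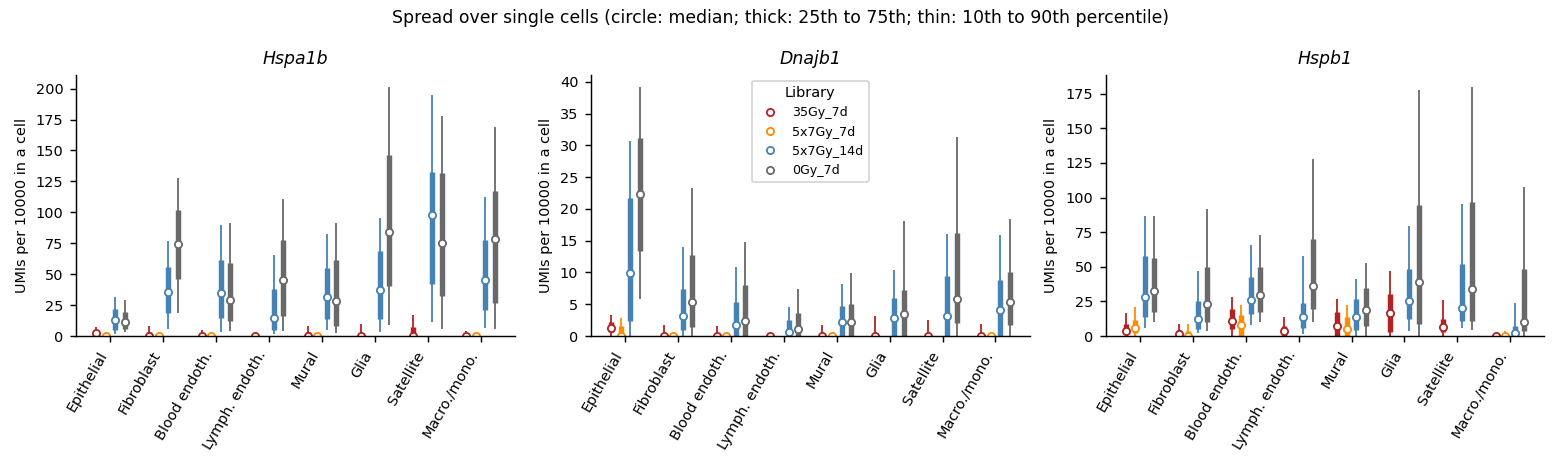
Spread over single cells of Hspa1b, Dnajb1 and Hspb1 (UMIs per 10000 in a cell, linear axis) by cell class and library, with the median as a circle, the 25th to 75th percentile as a thick bar and the 10th to 90th as a thin bar. Bars of 35Gy_7d and 5x7Gy_7d (red, orange) lie near 0 for Hspa1b and Dnajb1, and the Hspb1 bars of endothelial, mural and glial cells keep medians above 0 in all libraries drawn.

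The J-domain cochaperones were low in the same libraries, over a smaller range. Dnajb1, the HSP40 that hands substrates to HSP70 and is itself a classic HSF1 target, stood in epithelial cells at 175 CPM in 35Gy_7d, 106 in 5x7Gy_7d, 1504 in 5x7Gy_14d and 2263 in 0Gy_7d. Its epithelial log2 ratios to the unirradiated library were -3.69 (-3.72 to -3.67), -4.42 (-4.46 to -4.38) and -0.59 (-0.62 to -0.56) for 35Gy_7d, 5x7Gy_7d and 5x7Gy_14d. Within the unirradiated library Dnajb1 was highest in epithelial cells, followed by satellite cells at 1227 CPM, and of the 8 classes drawn it was lowest in lymphatic endothelium at 266 CPM. Hspa1b had another order there, with epithelial cells lowest of those 8 classes.

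Dnaja1, a J-domain cochaperone of cytosolic HSP70 with a farnesylated tail, was highest in macrophages and monocytes, at 4586 CPM in 5x7Gy_14d and 3870.5 CPM in 0Gy_7d. In the same class it stood at 192 CPM in 35Gy_7d and 91.1 CPM in 5x7Gy_7d, with log2 ratios to 0Gy_7d of -4.33 (-4.41 to -4.25) and -5.41 (-5.87 to -4.98). In epithelial cells Dnaja1 stood at 184, 90.7, 731 and 518 CPM in 35Gy_7d, 5x7Gy_7d, 5x7Gy_14d and 0Gy_7d. The day-14 ratios split by class, at 0.56 in mural cells, 0.50 in epithelial cells and 0.38 in blood endothelium, against -0.45 in fibroblasts and -0.53 in glia.

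Hsph1 encodes HSP110, a nucleotide exchange factor for HSP70 that also dissolves aggregates with it. In macrophages and monocytes it stood at 35.2 CPM in 35Gy_7d, 39.3 in 5x7Gy_7d, 1004 in 5x7Gy_14d and 979 in 0Gy_7d. Epithelial cells had the lowest unirradiated level and the smallest difference, with 48.5, 48.6, 101 and 72.1 CPM in the same libraries and log2 ratios to 0Gy_7d of -0.57 (-0.64 to -0.50), -0.57 (-0.65 to -0.49) and 0.48 (0.35 to 0.61). In epithelial cells below 5000 UMIs the single-dose order was the other way on few counts, with 129 CPM (14 UMIs) in 35Gy_7d and 101 CPM (8 UMIs) in 0Gy_7d at 500 to 2000 UMIs, and 59.8 CPM (25 UMIs) and 48.2 CPM (8 UMIs) at 2000 to 5000. At day 14 Hsph1 lay above the unirradiated library in mural cells, at 0.95 (0.77 to 1.14), in blood endothelium, at 0.82 (0.71 to 0.93), and in satellite cells, at 0.73 (0.56 to 0.88), and below it in fibroblasts, at -0.75 (-0.78 to -0.71). Shallow fibroblasts had more Hsph1 but weigh little in the pooled UMIs. Unirradiated fibroblasts of 500 to 2000 UMIs had 1898 CPM and deeper ones 468 to 493 CPM, beside 506 CPM over all depths. Among day-14 fibroblasts the shallow cells had 749 CPM and the deeper ones 279.6 to 355 CPM, so the order of the libraries was the same at every depth.

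Hspa8, the constitutive HSC70 that folds new proteins and uncoats clathrin vesicles, differed less. Its epithelial level was 889.8 CPM in 35Gy_7d, 486 in 5x7Gy_7d, 1696 in 5x7Gy_14d and 1089.7 in 0Gy_7d. The ratios to 0Gy_7d were -0.29 (-0.31 to -0.27), -1.16 (-1.19 to -1.14) and 0.64 (0.61 to 0.67). Fibroblasts showed a larger difference, at -2.20 for 35Gy_7d and -3.53 for 5x7Gy_7d. At day 14 Hspa8 was above the unirradiated level in epithelial cells, blood endothelium (0.47) and macrophages and monocytes (0.36), each by less than 2-fold.

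Hspb1 encodes the small heat shock protein HSP27, an ATP-independent holdase that binds actin and is abundant in differentiating squamous epithelium. In epithelial cells Hspb1 stood at 804 CPM in 35Gy_7d, 1292 in 5x7Gy_7d, 3963 in 5x7Gy_14d and 4694 in 0Gy_7d. It was the only member with a higher epithelial level in 5x7Gy_7d than in 35Gy_7d beyond counting error, at 0.68 (0.67 to 0.70). In macrophages and monocytes Hspb1 stood at 45.3, 66.3, 869 and 3557 CPM in 35Gy_7d, 5x7Gy_7d, 5x7Gy_14d and 0Gy_7d. The macrophages of 35Gy_7d and of 0Gy_7d were of different clusters, as given above. The log2 ratio to 0Gy_7d was -6.30 (-6.43 to -6.16) for 35Gy_7d, beside -6.25 for Hspa1b in lymphatic endothelium as the next of all members and classes, and -2.03 (-2.11 to -1.96) for 5x7Gy_14d, beside -1.14 for Hspa1b in glia. Fibroblast markers in that class were also lower than in 0Gy_7d, by a smaller fold than Hspb1 and with the opposite order of 35Gy_7d and 5x7Gy_7d. Of the 11 listed, 9 were in the tables and summed to 338, 99.4, 1122 and 1448 CPM in the same libraries. None was at 0 except Lum, Pdgfra, Dpt and Mfap5 in 5x7Gy_7d. Their part in the result was not tested. Glia, blood endothelium and mural cells kept the most Hspb1 after the single dose, at 2213, 1270.4 and 1238 CPM, against 6882, 3618 and 2792 CPM in the unirradiated library.

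Hspd1 encodes HSP60, the chaperonin of the mitochondrial matrix, and its difference after the single dose had no common sign across classes. In epithelial cells it stood at 632 CPM in 35Gy_7d, 223 in 5x7Gy_7d, 422 in 5x7Gy_14d and 429 in 0Gy_7d. The single-dose library was thus the highest and the fractionated day-7 library the lowest, with ratios to 0Gy_7d of 0.56 (0.53 to 0.58) and -0.95 (-0.98 to -0.91). Depth moved with this order in part: among cells of 5000 to 10000 UMIs Hspd1 stood at 318 CPM in 35Gy_7d and 363 CPM in 0Gy_7d, while in the shallower and deeper bins 35Gy_7d was the higher. Blood endothelium had the same order as all epithelial cells, at 0.45 and -0.69. In lymphatic endothelium the single-dose ratio was 0.07 (-0.27 to 0.40), an interval that includes 0. Hspd1 was lower in 35Gy_7d than in 0Gy_7d in the other 5 classes, at -1.55 in satellite cells, -0.73 in fibroblasts, -0.49 in glia and -0.23 in mural cells. In macrophages and monocytes, the fifth, it was lower in both irradiated libraries of day 7, at 122 CPM in 35Gy_7d and 78.7 CPM in 5x7Gy_7d, against 383 CPM in 0Gy_7d. Hspe1, which encodes the HSP10 lid of the same chaperonin, stood in epithelial cells at 136, 74.7, 125 and 73.9 CPM in 35Gy_7d, 5x7Gy_7d, 5x7Gy_14d and 0Gy_7d.

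Hspa5 encodes BiP, the HSP70 of the endoplasmic reticulum, and was lower after the fractionated than after the single dose at day 7 in every class compared. In epithelial cells Hspa5 stood at 309.5 CPM in 35Gy_7d, 94.8 in 5x7Gy_7d, 287 in 5x7Gy_14d and 384 in 0Gy_7d. The ratio of 5x7Gy_7d over 35Gy_7d was -1.71 (-1.75 to -1.66) in epithelial cells, -1.89 (-2.05 to -1.73) in blood endothelium, -1.82 (-2.08 to -1.57) in mural cells and -2.17 (-2.44 to -1.92) in macrophages and monocytes. All 4 lay past 2-fold, as did fibroblasts at -1.22 and T, NK and innate lymphoid cells at -1.08. Within depth bins of epithelial cells the order of these libraries was the same, from 174 against 524 CPM at 500 to 2000 UMIs to 103 against 314 CPM above 10000 UMIs. Against 0Gy_7d the single-dose epithelial level depended on depth, with 524 CPM (57 UMIs) in 35Gy_7d and 365 CPM (29 UMIs) in 0Gy_7d at 500 to 2000 UMIs but 314 and 389 CPM above 10000. In macrophages and monocytes the single-dose level, 1206 CPM, was above the unirradiated 944 CPM, at 0.35 (0.24 to 0.47). Hsp90aa1, the inducible cytosolic HSP90, had at most 2 UMIs in any class and library, so no level or ratio is given. Whether so few UMIs reflect the annotation or the transcript itself was not tested, so the gene cannot be called unexpressed.

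Smaller classes add the following. In glia, the cells that ensheath enteric and peripheral nerves, Hspa1b stood at 256 CPM in 35Gy_7d, 4441 in 5x7Gy_14d and 9802 in 0Gy_7d, the highest unirradiated level of the 8 classes drawn. In satellite cells, the stem cells of the esophageal skeletal muscle, it stood at 507, 9129 and 8106 CPM in the same libraries, the highest level of 35Gy_7d. Hspa5 was lower in satellite cells after the single dose, with 476 CPM in 35Gy_7d and 1157 CPM in 0Gy_7d, a ratio of -1.28. T, NK and innate lymphoid cells, too few in 0Gy_7d for a level, had Hspa8 at 892 CPM in 35Gy_7d, 226 in 5x7Gy_7d and 3652 in 5x7Gy_14d. They had the fewest Hspb1 UMIs of the classes at day 14, at 157 CPM, and 0 in the 57 cells of 5x7Gy_7d. Neutrophils were numerous in 35Gy_7d alone, where they had 34.4 CPM of Hspa1b and 10.8 CPM of Hsph1, the lowest levels of both genes among its classes of at least 50 cells.

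**Figure D3:**
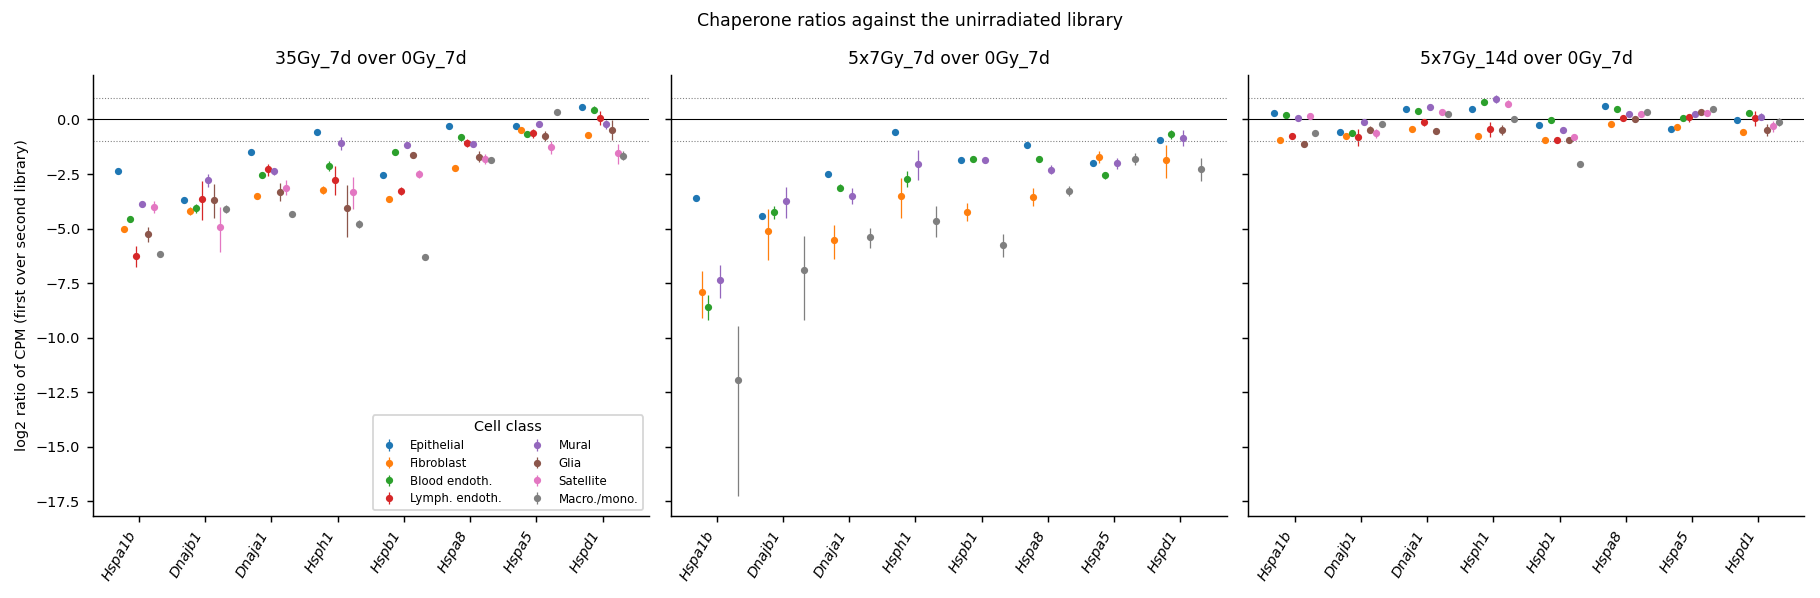
Log2 ratio of CPM against the unirradiated library for 8 chaperones (columns) in up to 8 cell classes (colours), in 1 panel per irradiated library, with exact 95% intervals as bars and dotted lines at 2-fold. Points of 35Gy_7d and 5x7Gy_7d lie below 0 except Hspd1 in epithelial cells and blood and lymphatic endothelium and Hspa5 in macrophages and monocytes of 35Gy_7d, and points of 5x7Gy_14d lie within 2-fold of 0 except Hspa1b in glia and Hspb1 in macrophages and monocytes.

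Counted by class, a member is called here when its CPM differed at least 2-fold between libraries and the pair held at least 20 UMIs of it. In epithelial cells 4 of 8 members were lower in 35Gy_7d than in 0Gy_7d, beside 10.5% of all genes tested in that pair. The counts were 6 of 8 in fibroblasts beside 13.0%, 5 in blood endothelium beside 12.6%, 6 in lymphatic endothelium beside 13.3% and 6 in mural cells beside 9.83%. They were 6 in glia beside 7.72%, 8 in satellite cells beside 14.2% and 7 in macrophages and monocytes beside 17.0%. For 5x7Gy_7d over 0Gy_7d, 6 of 8 were lower in epithelial cells beside 12.3%, 8 in fibroblasts beside 9.99%, 7 in blood endothelium beside 10.8%, 7 in mural cells beside 9.89% and 8 in macrophages and monocytes beside 17.1%. No member was called higher in 35Gy_7d, where 9.78% of genes were higher in epithelial cells, 10.5% in fibroblasts, 8.09% in blood and 5.37% in lymphatic endothelium, 8.31% in mural cells, 10.5% in glia, 10.3% in satellite cells and 15.6% in macrophages and monocytes. None was called higher in 5x7Gy_7d either, beside 11.6% of genes in epithelial cells, 36.3% in fibroblasts, 12.1% in blood endothelium, 9.91% in mural cells and 16.8% in macrophages and monocytes. These contrasts informed the choice of members, so nothing is read from the counts. In the 85 fibroblasts of 5x7Gy_7d the median log2 ratio over all genes was 0.53. Genes at 0 in a library were set to 3 counts, and that class held 250950 UMIs against 28056096 in 0Gy_7d. This setting raises the median and bears on the 9.99% and 36.3% of genes called there, so no shift of all genes is read from them. The median was 0.16 in epithelial cells and 0.22 in glia of 35Gy_7d. Relative to other genes the members lay that much lower again in those classes. The 3 comparisons with 0Gy_7d share that library.

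Between the irradiated libraries of day 7, the fractionated one was lower for 4 of 8 members in epithelial cells beside 13.2% of all genes, namely Hspd1, Hspa5, Hspa1b and Dnaja1. The counts were 5 in fibroblasts beside 14.1%, 4 in blood endothelium beside 8.48%, 4 in mural cells beside 12.3%, 5 in macrophages and monocytes beside 12.1% and 6 in T, NK and innate lymphoid cells beside 21.5%. Hspa1b and Hspa5 were called in every one of these classes. No member was called higher, beside 7.96% of genes in epithelial cells, 18.6% in fibroblasts, 12.9% in blood endothelium, 11.1% in mural cells, 18.6% in macrophages and monocytes and 5.41% in T, NK and innate lymphoid cells. Hspa1b stood at 10.4 CPM in 5x7Gy_7d and 170.2 CPM in 35Gy_7d in blood endothelium, a ratio of -4.03 (-4.65 to -3.47), and at -3.51 in mural cells. Epithelial cells were also shallower in the fractionated library, with a median of 6644.5 UMIs per cell against 18458 in the single-dose library, and among cells above 10000 UMIs alone Hspa1b stood at 127 against 264 CPM.

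At day 14 after fractionated doses the members were higher than at day 7 in every class compared. The counts were 7 of 8 in epithelial cells beside 15.1% of all genes, 8 in fibroblasts beside 9.72%, 7 in blood endothelium beside 12.7%, 7 in mural cells beside 14.6%, 8 in macrophages and monocytes beside 16.7% and 8 in T, NK and innate lymphoid cells beside 23.6%. The member short of 2-fold was Hspd1 in all 3 classes with 7, at 0.92, 0.98 and 0.95. Against the unirradiated library, 5x7Gy_14d had 0 members lower and 0 higher in epithelial cells, fibroblasts, both endothelia, mural cells and satellite cells. The genes lower there were 5.34% in epithelial cells, 4.01% in fibroblasts, 4.51% in blood and 7.07% in lymphatic endothelium, 2.52% in mural cells and 13.3% in satellite cells, and those higher were 8.45%, 9.63%, 5.77%, 5.48%, 8.04% and 9.08% in the same classes. In glia 1 member was lower beside 2.79% of all genes, Hspa1b at -1.14 (-1.19 to -1.10), and in macrophages and monocytes 1 was lower beside 4.76%, Hspb1. No member was higher in these classes, beside 10.9% and 8.41% of genes. In fibroblasts all 8 members lay below the unirradiated library, with log2 ratios between -0.94 (Hspa1b) and -0.23 (Hspa8) and a median over all genes of 0.08. In fibroblasts the median over all genes for 5x7Gy_14d over 5x7Gy_7d was -0.52. The 3 counts set for a gene at 0 in the shallow 5x7Gy_7d fibroblasts lower that median and bear on the 9.72% above. No shift of all genes is read from it.

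Within the epithelium, cells were split by keratins into basal (mostly Krt5, Krt14 and Krt15) and suprabasal (mostly Krt4 and Krt13), and cells with at least 2 UMIs of Mki67 and Top2a were set apart as cycling. Hspb1 was highest in suprabasal cells of every library, at 2786 CPM in 35Gy_7d, 2449.7 in 5x7Gy_7d, 5523 in 5x7Gy_14d and 6384 in 0Gy_7d. Basal cells had 582, 640.1, 3474 and 3182 CPM, so the fold between layers was larger in both irradiated libraries of day 7. Suprabasal cells were 1413 of 6412 in 5x7Gy_7d and 331 of 3235 in 35Gy_7d, and within basal cells alone the Hspb1 levels of these libraries were closer than over all epithelial cells. Hspd1 was highest in cycling cells of every library, at 872, 323, 514 and 539 CPM, against 421, 209, 402 and 392 CPM in basal cells. In suprabasal cells Hspd1 stood at 296 CPM in 35Gy_7d and 389.9 CPM in 0Gy_7d, so the higher single-dose level did not hold in that layer. Cycling cells were 1141 of 3235 in 35Gy_7d and 592 of 2479 in 0Gy_7d. The part of this mix in the Hspd1 ratio over all epithelial cells was not tested. Hspa1b, Dnajb1 and Dnaja1 were lower in both irradiated libraries of day 7 than in the unirradiated one in each of the 3 states. The difference of Hspa5 after the single dose was largest in suprabasal cells, at 279 CPM in 35Gy_7d against 461 CPM in 0Gy_7d, while basal cells had 279 and 293 CPM.

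**Figure D4:**
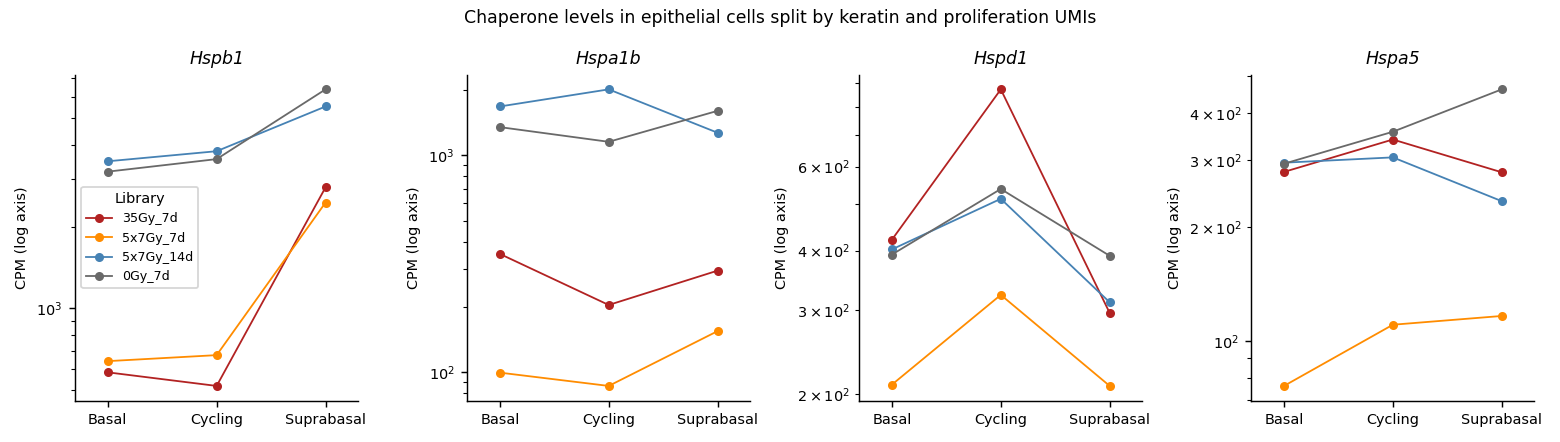
Level (CPM, log axis) of Hspb1, Hspa1b, Hspd1 and Hspa5 in basal, cycling and suprabasal epithelial cells, with 1 line per library joining its 3 states. Hspb1 lines rise to suprabasal cells in all 4 libraries, Hspd1 lines peak in cycling cells, and the Hspa1b lines of 35Gy_7d and 5x7Gy_7d lie below those of 5x7Gy_14d and 0Gy_7d in every state.

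Other genes of protein folding were read from lists by compartment, in the same epithelial cells. Of 34 cytosolic chaperones and cochaperones linked to HSF1, 6 were at least 2-fold lower and 1 higher in 35Gy_7d than in 0Gy_7d, beside 10.5% and 9.78% of all genes, with a list median of 0.12 against 0.16 over all genes. The lower ones included the small heat shock proteins Hspb8 at -4.38 (-4.68 to -4.10) and Cryab at -3.60 (-3.94 to -3.27), the cochaperone Bag3, which links HSP70 to autophagy, at -1.58, and the J-domain gene Dnajb4 at -1.61. Fkbp5, an HSP90 cochaperone induced by glucocorticoids, was the higher one, at 1.90 (1.32 to 2.53), from a low level of 2.46 CPM in 35Gy_7d and 0.659 CPM in 0Gy_7d. Fkbp5 was also higher in fibroblasts, at 24.2 CPM in 35Gy_7d and 3.85 CPM in 0Gy_7d. In 5x7Gy_7d, 8 of the 34 were lower and 0 higher than in 0Gy_7d, beside 12.3% and 11.6% of all genes, with a median of -0.63, and among them was Hsp90ab1, the constitutive cytosolic HSP90. Hsp90ab1 stood at 3721 CPM in 35Gy_7d, 1485 in 5x7Gy_7d, 4332 in 5x7Gy_14d and 4066 in 0Gy_7d.

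Chaperonin and prefoldin subunits, which fold actin and tubulin, had 0 of 14 called in either direction in epithelial cells of 35Gy_7d and of 5x7Gy_7d, with medians of 0.32 and -0.56. Mitochondrial chaperones and proteases had 0 of 11 lower and 1 higher in 35Gy_7d, Htra2 at 1.09 (0.96 to 1.22), and 0 in either direction in 5x7Gy_7d, beside the same shares of all genes, with medians of 0.33 and -0.29. Heat shock factor and stress genes had median log2 ratios to 0Gy_7d of -0.85 in 35Gy_7d and -0.40 in 5x7Gy_7d. Of these, Gadd45b, a gene of the response to DNA damage and stress, stood at -1.56 and -4.75 in the same comparisons, and the ubiquitin gene Ubb at -0.54 and -1.73. The cold-inducible gene Cirbp, which rises when cells are cooled, stood at 31.9, 10.6, 28.2 and 54.2 CPM in 35Gy_7d, 5x7Gy_7d, 5x7Gy_14d and 0Gy_7d, and Rbm3, the other gene of that kind, at 786, 313, 384 and 478 CPM.

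Genes of the endoplasmic reticulum list did not all follow Hspa5. In epithelial cells 6 of 32 were lower and 2 higher in 35Gy_7d than in 0Gy_7d, beside the 10.5% and 9.78% above, with a median of 0.18. The lower ones included Ppp1r15a, the phosphatase subunit GADD34 that restores translation, at -3.02 (-3.06 to -2.98), and the transcription factor genes Ddit3 at -1.29 and Atf4 at -1.01. The higher ones, outside the rule for naming and chosen after their values were seen, were Sdf2l1 at 1.15 and Chac1 at 1.16. In 5x7Gy_7d 5 of 32 were lower and 0 higher, beside 12.3% and 11.6%, namely Ppp1r15a at -6.24 (-6.38 to -6.11), Dnajb9 at -2.74, Atf4 at -2.28, Ddit3 at -1.81 and Sesn2 at -1.73. Macrophages and monocytes of 35Gy_7d, compared with the 179 of 0Gy_7d, had 18 of 30 higher and 4 lower, beside 15.6% and 17.0% of all genes, with a median of 1.58 against 0.11 over all genes. These were cells of different clusters in each library, as given above. The genes given here were chosen after their values were seen, among them Creld2 at 4.93 (3.38 to 7.21), Hyou1 at 3.17 (1.94 to 4.80), Pdia4 at 3.07 (1.94 to 4.52) and Hsp90b1, which encodes GRP94, at 2.58 (2.32 to 2.86). Hsp90b1 stood at 1019 CPM in 35Gy_7d, 427 in 5x7Gy_7d, 277 in 5x7Gy_14d and 169.9 in 0Gy_7d, while Creld2, Hyou1 and Pdia4 had 3 to 6 UMIs in the unirradiated cells. The 4 lower genes were Ppp1r15a at -3.43, Ddit3 at -2.95, Atf4 at -1.53 and Herpud1 at -1.46. B and plasma cell markers, whose cells are rich in these chaperones, were at or near 0 in this class, with Ms4a1, Jchain, Mzb1 and Pou2af1 at 0 in all 4 libraries and summed levels of 0.0795, 2.07, 0.268 and 0 CPM. The gate leaves out cells that score close to another class, so low values here follow in part from the gate. The part of B and plasma cells in the result was not tested. Neutrophil markers in the class summed to 759, 118, 184 and 159.5 CPM, and their part in the result was not tested.

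**Figure D5:**
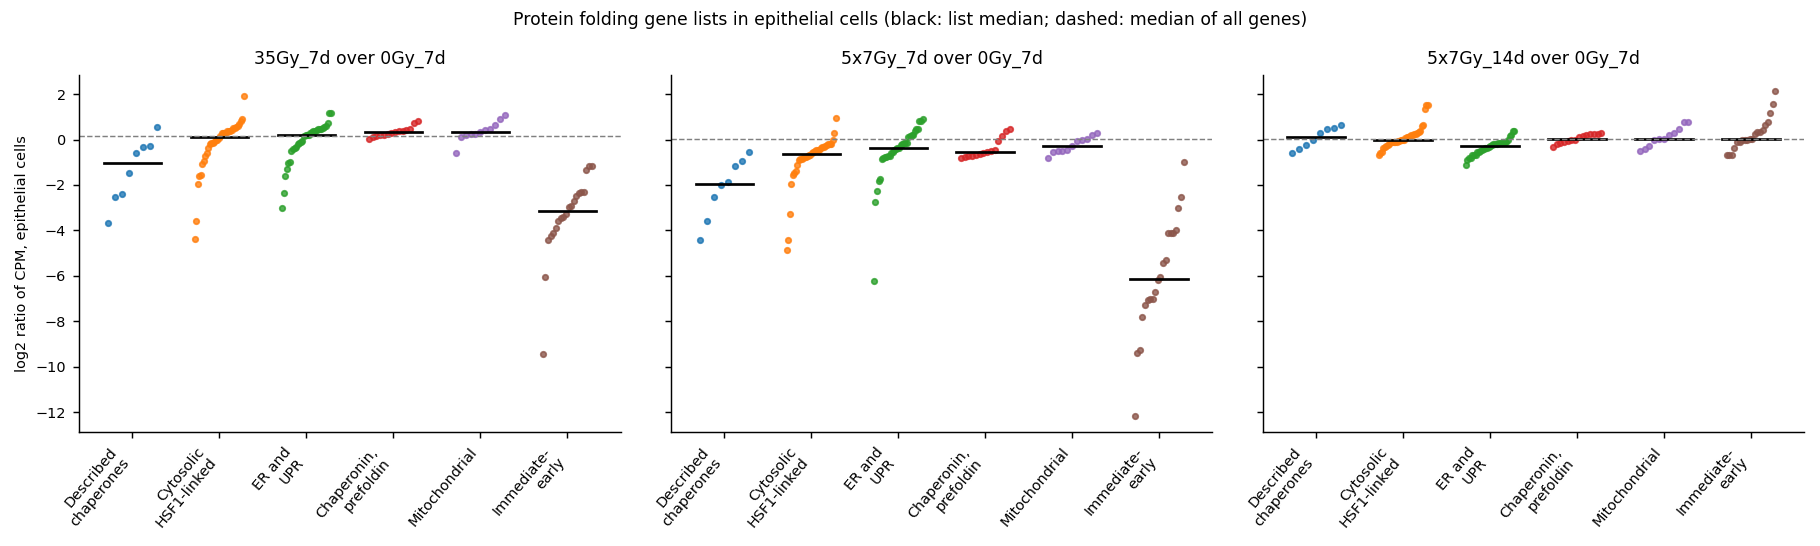
Log2 ratio of CPM against the unirradiated library in epithelial cells for the genes of 6 lists, with 1 point per gene, a black bar at the list median and a dashed line at the median of all genes tested. Immediate-early genes lie lowest in 35Gy_7d and 5x7Gy_7d, chaperonin, prefoldin and mitochondrial genes lie within about 1 of 0, and all lists centre near 0 in 5x7Gy_14d.

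Immediate-early genes known from tissue dissociation were low in the same libraries as the members. In epithelial cells 20 of 20 were at least 2-fold lower in 35Gy_7d and 19 of 20 in 5x7Gy_7d than in 0Gy_7d, beside 10.5% and 12.3% of all genes, with medians of -3.13 and -6.14. In fibroblasts of 35Gy_7d 18 of 20 were lower, beside 13.0%. In epithelial cells of 5x7Gy_14d 0 were lower and 3 higher, beside 5.34% and 8.45%, Klf2, Egr2 and Socs3, with a median of 0.02. Fos stood in fibroblasts at 354 CPM in 35Gy_7d, 3.98 in 5x7Gy_7d, which was 1 UMI, 11225 in 5x7Gy_14d and 11813 in 0Gy_7d. The part of the dissociation response in the chaperone values was not tested.

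Over 34 pairs of a library and a class, 5571 genes, the measured members included, had a mean of at least 20 CPM. The others among them were ranked by the correlation of their log2(CPM + 1) with that of the summed members. The pairs share libraries and depth, and the values are descriptions. Among the most alike were Jun (r = 0.95), Ppp1r15a (0.92), the unnamed locus LOC103692716 (0.92), Atf3, Egr1 and Fosb (0.91 each) and Fos (0.90). Ranked on Hspa5 alone, the first were Ubb (0.83), Atf4 (0.82), Nfil3, Rassf1 and Dnajb9 (0.80 each), Junb (0.79) and Jmjd6 and Gadd45b (0.78 each). Among the members, Hspa8 and Dnaja1 were most alike (0.94), and Hspa5 was least like Hspb1 and Hspd1 (0.36 each).

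Within a library, cell-to-cell variation was also compared. In fibroblasts of at least 5000 UMIs, the correlation of Hspa1b with Fos was 0.08 over 313 cells of 35Gy_7d, 0.72 over 2803 cells of 5x7Gy_14d and 0.68 over 3125 cells of 0Gy_7d. In epithelial cells the same pair had 0.19 in 35Gy_7d, 0.00 in 5x7Gy_7d, 0.67 in 5x7Gy_14d and 0.32 in 0Gy_7d. Other members differed in their correlation with Fos in epithelial cells of 0Gy_7d. It was 0.31 for Dnajb1, 0.25 for Dnaja1 and 0.20 for Hspa8. For Hsph1 it was 0.08, for Hspa5 0.04, for Hspb1 0.007 and for Hspd1 -0.06. These cells share a library and a depth range, and in sparse counts the values near 0 show little. Hspa5 and Hspd1, from the endoplasmic reticulum and the mitochondrion, had 0.41 in epithelial cells of 35Gy_7d, 0.17 in 5x7Gy_7d, 0.31 in 5x7Gy_14d and 0.06 in 0Gy_7d.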

How the data were processed

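Single cells of the rat esophagus were captured with 10x Genomics 3′ v3.1 chemistry and sequenced on a NovaSeq instrument, per the labels' protocol. The authors deposited raw UMI counts, 1 matrix of 32623 features per library. Cell Ranger 5.0.0 is listed as tool and mRatBN7.2 and rn7 as builds in the submitters' processing notes. Annotation version: not given in the sources used here. Counts of features with the same symbol were summed.

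A barcode was kept if it had 200 genes and 500 UMIs or more and no more than 20% of UMIs from mitochondrial genes. Scrublet in scanpy called 2.84%, 2.22%, 4.18% and 3.86% doublets in 35Gy_7d, 5x7Gy_7d, 5x7Gy_14d and 0Gy_7d, below the expected 9.19%, 8.71%, 8.37% and 10.0%; these were left out, and uncalled doublets may remain. Cells were gated by marker lists, and 4 clusters of the clustering alternative stayed unnamed. UMIs were summed per library and class. Ratios have exact conditional binomial 95% intervals, levels exact Poisson ones and shares exact Clopper-Pearson ones, all for counting error only; a class needed 50 cells, a list 200, and a gene 20 UMIs in the pair. The endoplasmic reticulum list in macrophages and monocytes was also read against the 179 unirradiated cells. A library at 0 was set to 3 counts.

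With 1 pool per group, no test was made. The members, gene lists and rules were chosen with earlier results of these data known. From each list, up to 4 genes per class and comparison were named by the interval bound nearest to 1, and the 8 genes most alike in pattern were named; other genes are values chosen after they were seen. Some genes that these rules reach are not reported here. Alternatives changed the cell filter, doublets, scaling, denominator, cell weighting, gate, clusters, UMI minimum and fold. Python 3.11.15, numpy 2.4.6, scipy 1.17.1, pandas 2.3.3, scanpy 1.11.5 and matplotlib 3.10.9 were used, and the ratio script was tested on simulated counts.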

Additional observations from a re-analysis of the deposited data

Results flagged for a closer look

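Several members stood above the unirradiated library in one class and below it in another in the same comparison, and in each case the difference between the classes was not tested. Hspd1 in 35Gy_7d over 0Gy_7d had log2 ratios of 0.56 in epithelial cells and -1.65 in macrophages and monocytes, a difference of 2.21. Hspa5 in the same comparison had 0.35 in macrophages and monocytes and -1.28 in satellite cells, a difference of 1.63.

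In 5x7Gy_14d over 0Gy_7d, Hsph1 had 0.95 in mural cells and -0.75 in fibroblasts, a difference of 1.70. Hspa1b had 0.28 in epithelial cells and -1.14 in glia, a difference of 1.42. Dnaja1 had 0.56 in mural cells and -0.53 in glia, a difference of 1.08.

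Barcodes over the mitochondrial limit, which enter no comparison, also held member UMIs. In CPM of non-mitochondrial UMIs, Hsph1 stood there at 85.1 in 35Gy_7d, 48.4 in 5x7Gy_7d, 682 in 5x7Gy_14d and 430.0 in 0Gy_7d. The kept cells had 49.7, 49.2, 349 and 296 on the same scale, so Hsph1 was higher in the left-out barcodes of 35Gy_7d, 5x7Gy_14d and 0Gy_7d and close to the kept cells in 5x7Gy_7d.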

How the results depend on the processing

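Of the member ratios of at least 2-fold, 159 in all, every one of 1077 values under the alternatives had the same sign, 1060 were still at least 2-fold, and the largest shift was 2.43 on the log2 scale. Counts of members moved mostly in 5x7Gy_14d over 0Gy_7d, where ratios lie close to 2-fold. The count lower in glia, 1, became 2 with at least 1000 UMIs and at most 10% mitochondrial UMIs, with median-of-ratios scaling, without mitochondrial, ribosomal and haemoglobin genes in the denominator, with cluster classes and at 1.5-fold, and 0 with the stricter gate and at 3-fold. The count lower in fibroblasts, 0, became 1 with equal cell weights, 2 with median-of-ratios scaling and 4 at 1.5-fold. From 0, the count higher became 1 in blood endothelium with equal cell weights and in mural cells with equal weights and the stricter gate, and the count lower became 1 in lymphatic endothelium with the stricter gate. At 1.5-fold, 1 was higher in epithelial cells, blood endothelium, mural cells and satellite cells, and 1 was lower in epithelial cells and blood endothelium, 2 in satellite cells and in macrophages and monocytes and 3 in lymphatic endothelium.

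For 5x7Gy_7d over 35Gy_7d, 1 was higher in epithelial cells and 8 were lower in mural cells at 1.5-fold, while at 3-fold 1 was lower in epithelial cells, 2 each in fibroblasts, blood endothelium and mural cells and 3 in macrophages and monocytes. At 3-fold 3 were lower in mural cells of 35Gy_7d than of 0Gy_7d. Among list medians 3 changed sign: HSF1-linked chaperones in epithelial cells of 35Gy_7d over 0Gy_7d, 0.12, became -0.048 with median-of-ratios scaling, heat shock factor and stress genes in epithelial cells of 5x7Gy_7d over 0Gy_7d, -0.40, became 0.039 with equal cell weights, and the same list in mural cells of 5x7Gy_14d over 0Gy_7d, 0.13, became -0.0087 with median-of-ratios scaling. The cause was not tested. No paired analysis was possible because each group was 1 pooled library. Depth limits the levels of 5x7Gy_7d in T, NK and innate lymphoid cells (88550 UMIs in 57 cells), fibroblasts (250950 in 85) and macrophages and monocytes (482981 in 245).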

Other observations

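Fkbp5, the HSP90 cochaperone induced by glucocorticoids, was higher in blood endothelium of all 3 irradiated libraries and in mural cells of 35Gy_7d and 5x7Gy_14d. In blood endothelium Fkbp5 stood at 22.3 CPM in 35Gy_7d, 20.9 in 5x7Gy_7d, 11.6 in 5x7Gy_14d and 3.97 in 0Gy_7d, and in mural cells at 8.55, 12.9, 7.42 and 1.7 CPM. In blood endothelium all 3 irradiated libraries lay above the unirradiated one, with an Fkbp5 log2 ratio at day 14 of 1.55 (0.82 to 2.36). In mural cells 35Gy_7d and 5x7Gy_14d lay above 0Gy_7d, with a day-14 ratio of 2.13 (0.66 to 4.08). The mural levels rest on few UMIs, since that class held 2358793 UMIs of all genes in 0Gy_7d and 698622 in 5x7Gy_7d. The Fkbp5 UMIs of 5x7Gy_7d and 0Gy_7d in mural cells together fell below the minimum set for a pair, so their order is not read.

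Hmox1, the haem oxygenase that heat, haem and oxidants induce, was low at day 7 and high at day 14 in fibroblasts and blood endothelium. In fibroblasts Hmox1 stood at 10.8 CPM in 35Gy_7d, 0 UMIs in 85 cells of 5x7Gy_7d, 68.4 CPM in 5x7Gy_14d and 28.2 CPM in 0Gy_7d. In blood endothelium it stood at 14.3, 3.61, 46.5 and 22.7 CPM in the same libraries. The day-14 log2 ratios to 0Gy_7d were 1.28 (1.16 to 1.39) in fibroblasts and 1.04 (0.73 to 1.36) in blood endothelium, against 0.11 (-0.12 to 0.33) in macrophages and monocytes, whose interval includes 0.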
